A study of Arabidopsis thaliana with 20 samples.

Results

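The WRKY transcription factors described here are 54 listed Arabidopsis genes, found by their locus identifiers among the 34262 genes of each count file. The TAIR10.1 annotation gives a WRKY number as a symbol or synonym to 72 genes, so 18 further genes of that name are not described here. All 54 passed the count filter of the fit across all genes, and 52 had a mean above 0.5 CPM, counts scaled to the library size, over the 20 samples. Members are counted only among these 52. WRKY35 and WRKY72 lay just below the threshold, at a mean of 0.3869 and 0.3856 CPM, and WRKY55 and WRKY74 just above it, at 0.5293 and 0.7641 CPM.

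RNA was sequenced from aboveground tissue of bolting Arabidopsis thaliana plants in 6 groups, which asks how gene expression differs between dwarf and non-dwarf plants that carry a PPD3 overexpression transgene or descend from plants that did. PPD3 encodes a plastid protein with a PsbP domain. T+ dwarf (n = 3) and T+ normal (n = 3) have the genotype PPD3-OX T+ and carry the transgene. Gen1 dwarf (n = 3) has the genotype PPD3-OX null Gen1, and these plants are siblings of T+. Gen2 dwarf (n = 5) and Gen2 large (n = 3) have the genotype PPD3-OX null Gen2 and are the offspring of Gen1. WT (n = 3) carries no construct. All groups share the Col-0 source, soil and 12 h photoperiod, but the ecotype of WT 3 is labelled Col-1. The promoter of the transgene, the number of independent lines, plant age and pooling of plants are not stated in those labels.

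WRKY proteins form one of the largest families of plant transcription factors and bind the W-box, a short DNA element with the core TTGAC. Many are induced by pathogens, salicylic acid, wounding or leaf ageing, and some bind the promoters of their own and other WRKY genes. Subgroup I has a pair of WRKY domains and holds known targets of MAP kinases, IIa to IIe have 1 domain with the same kind of zinc finger, and III has a finger of another kind. In leaves, members of IIa, IIc and III are known for tuning salicylic acid defence and senescence.

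The 250 bases before the annotated start are printed for 4 of the members that the results turn on, to show whether the family's own binding element lies there. WRKY28 and WRKY60 were called higher in dwarf plants in Gen1 against WT, in T+ and in Gen2. So were WRKY45, WRKY48 and WRKY61, whose windows are not printed. WRKY33 and WRKY40 had dwarf effects that differed between T+ and Gen2. These differ in transgene, generation and non-dwarf form (normal or large), whose parts cannot be told apart. The sequences come from the RefSeq TAIR10.1 genome, on the plus strand at chr4:10060964-10061213, chr2:16107985-16108234, chr1:30383311-30383560 and chr2:10629412-10629661. Capitals mark TTGACC or TTGACT on either strand, which on the opposite strand read GGTCAA or AGTCAA.
WRKY28: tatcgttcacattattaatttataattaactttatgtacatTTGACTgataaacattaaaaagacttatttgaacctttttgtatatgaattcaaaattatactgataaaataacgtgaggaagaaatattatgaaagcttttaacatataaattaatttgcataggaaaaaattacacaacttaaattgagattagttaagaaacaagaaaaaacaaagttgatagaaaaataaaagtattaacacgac
WRKY33: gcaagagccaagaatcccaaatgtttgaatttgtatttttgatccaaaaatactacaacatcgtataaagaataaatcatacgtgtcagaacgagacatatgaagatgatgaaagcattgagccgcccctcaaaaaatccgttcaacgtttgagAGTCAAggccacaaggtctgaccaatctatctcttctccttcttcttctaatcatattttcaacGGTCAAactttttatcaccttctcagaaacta
WRKY40: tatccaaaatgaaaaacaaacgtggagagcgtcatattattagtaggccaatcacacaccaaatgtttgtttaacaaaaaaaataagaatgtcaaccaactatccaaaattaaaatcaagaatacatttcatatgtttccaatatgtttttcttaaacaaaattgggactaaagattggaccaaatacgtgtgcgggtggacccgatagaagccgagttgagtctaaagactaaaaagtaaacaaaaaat
WRKY60: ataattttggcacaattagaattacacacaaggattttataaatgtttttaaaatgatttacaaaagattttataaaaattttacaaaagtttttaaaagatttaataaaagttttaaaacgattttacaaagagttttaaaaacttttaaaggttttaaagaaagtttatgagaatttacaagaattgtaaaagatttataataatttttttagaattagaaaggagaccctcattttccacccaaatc
The WRKY28 window holds a single match, 209 bases before the start, and the WRKY33 window holds a pair, 96 and 32 bases before it. The windows of WRKY40 and WRKY60 hold none, which says only that TTGACC and TTGACT are not there. The core TTGAC alone was not searched for, and the WRKY40 window holds it on the opposite strand, printed as gtcaa. Of the windows not printed, that of WRKY48 held 0 matches. Those of WRKY45, with 2 matches, and WRKY61, with 0, run into another gene. Of all 27443 protein-coding genes, 28.4% had a match in a window of that length and 6.18% had 2 or more. Of the 54 WRKY genes, 19 (35.2%) had a match and 10 (18.5%) had 2 or more. Matches per subgroup ranged from 0 of 3 in IIa to 5 of 9 in III, where 4 genes had 2 or more. Among the 28 members higher in dwarf plants, 10 (35.7%) had a match, against 8 (33.3%) of the other 24 counted.

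**Figure D1:**
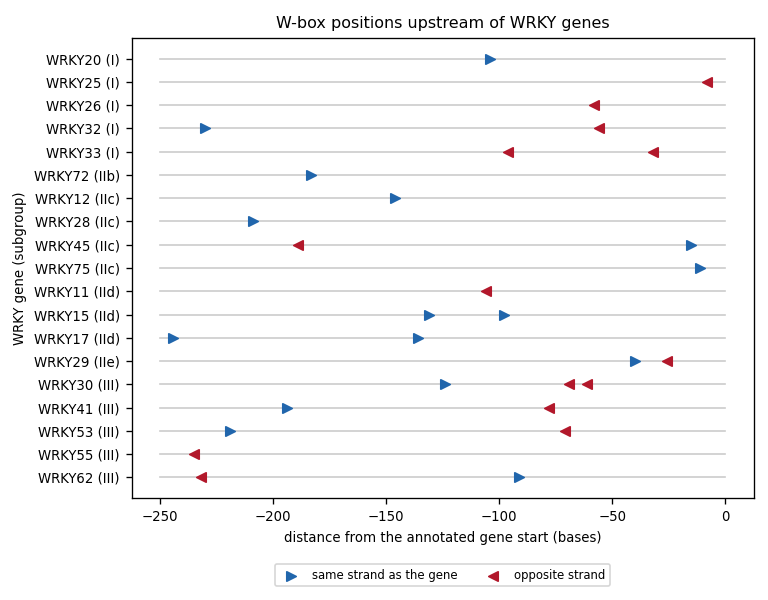
Positions of TTGACC or TTGACT in the 250 bases before the annotated start of the 19 WRKY genes that hold a match, with distance in bases on the x axis and genes, by subgroup, on the y axis. Triangles give the strand, and WRKY30 has the most, with 3 matches.

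Gene counts per sample ran from 45728485 to 117753467. A count of 0 allows up to 3 counts, or 0.0255 to 0.0656 CPM, which covers counting error only. PPD3 stood at 381 to 812 CPM in the T+ samples and at 92.4 to 148 CPM in the others, as the genotype labels give it. On the first and second principal components over the 2000 genes of highest variance, T+ normal 1 lay away from the other 19 samples, at 68.31 and 57.12. Of the root markers, EXPA7 and RHD6 had 0 counts in every sample, and the 5 root genes summed to at most 0.0763 CPM. The 7 floral organ genes summed to between 1.04 and 5.06 CPM, and the 5 green leaf genes to between 11900 and 31400 CPM. In whole shoots, fewer cells of a type and less RNA per cell cannot be told apart. Replicates differed beyond counting noise. They are labelled biological replicates, and p-values measure the spread between them.

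Per kilobase of exon, the most abundant members over the 20 samples were WRKY70 at a mean of 155.3 CPM per kb and WRKY54 at 80.31 CPM per kb, a related pair of subgroup III known to act in salicylic acid signalling and to delay leaf senescence. They were followed by WRKY33 at 35.03, WRKY18 at 34.26 and WRKY15 at 27.01 CPM per kb. The group mean was highest in Gen1 dwarf for 30 of the 52 members, against 21.0% of all genes, and lowest in Gen2 large for 28, against 21.8% of all genes. The ratio of the highest to the lowest group mean had a median of 1.95 over the members and 1.41 over all genes. It reached 10.5 for WRKY28, 8.66 for WRKY61, 8.14 for WRKY75, 7.22 for WRKY62, 7.14 for WRKY31 and 6.17 for WRKY40. All 3 members of IIa had their highest mean in Gen1 dwarf and their lowest in Gen2 large, as the map of the members by sample shows.

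**Figure D2:**
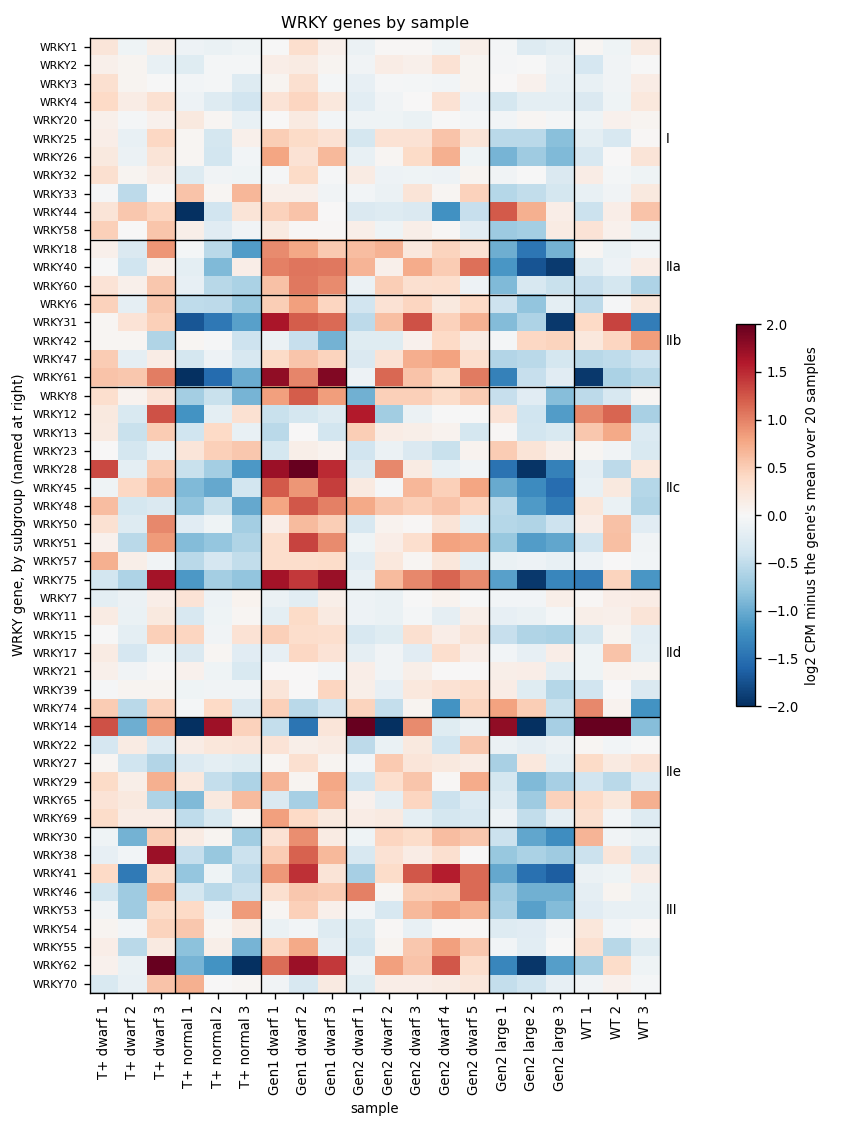
Log2 CPM of the 52 counted WRKY genes (rows, by subgroup) in the 20 samples (columns, by group), each minus its mean over all samples, with colours ending at 2 on either side. Rows of IIa, IIb and IIc are mostly red in the 3 Gen1 dwarf samples and blue in the 3 Gen2 large samples, while most rows of IId stay pale.

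Of the 9 pairwise comparisons, dwarf against large plants of Gen2, neither with the transgene, had the most called members, with 5 dwarf samples where other groups had 3. Of the 52 members, 22 were higher and 2 lower in Gen2 dwarf, while 13.5% of all tested genes were called and 8.67% were called higher and 4.79% lower. The higher members included all 3 of IIa, 5 of 9 in III, 5 of 11 in IIc, 4 of 5 in IIb and 3 of 11 in I. The lower ones were WRKY23, known from auxin responses of embryo and root, and WRKY44, also called TTG2, which shapes trichomes and seed coats. The median log2 difference was 0.56 over the members and 0.00 over all genes, and 45 of 52 members lay above 0, against 50.0% of all genes. Leaving out 1 sample gave 13 to 25 called members, with the fewest, 13, without Gen2 large 2. That fit called 1582 of all genes, where the fit of all 20 samples called 2920. With Gen2 dwarf 1 to 3 alone, 15 were called, where 1578 of 21622 genes were. In that fit 13 were called in T+ dwarf against T+ normal, where 3191 genes were. The Gen2 calls on WRKY6, WRKY15, WRKY29, WRKY30, WRKY31, WRKY33, WRKY44, WRKY61 and WRKY75 were lost.

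Among plants with the transgene, 13 members were higher and 2 lower in T+ dwarf than in T+ normal, while 15.0% of all genes were called and 7.21% were called higher and 7.79% lower. The higher members were WRKY8, WRKY28, WRKY45, WRKY48 and WRKY57 of IIc, WRKY6, WRKY31 and WRKY61 of IIb, WRKY18 and WRKY60 of IIa, WRKY38 and WRKY62 of III, and WRKY4 of I. The lower ones were WRKY23 and WRKY33. The median log2 difference was 0.28 over the members and 0.01 over all genes. The count fell to 5 without T+ normal 3, to 7 without T+ dwarf 3, to 8 without T+ dwarf 1 and to 9 without T+ normal 1, the sample that stood apart. Over all genes these fits called 2459, 2215, 1927 and 1929, where the fit of all 20 samples called 3255.

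Against WT, Gen1 dwarf had 8 members higher and none lower, while 2.01% of all genes were called and 1.62% were called higher. They were WRKY40 and WRKY60 of IIa, WRKY8, WRKY28, WRKY45 and WRKY48 of IIc, and WRKY47 and WRKY61 of IIb. The median log2 difference was 0.37 over the members and 0.00 over all genes. The groups did not overlap for 26 of 52 members, against 20.2% of all genes. The count was 2 without WT 1, 5 without WT 3, and 3, 4 and 3 without Gen1 dwarf 1, 2 and 3. Over all genes these fits called 71, 232, 159, 156 and 202, where the fit of all 20 samples called 437. In Gen1 dwarf against T+ dwarf no member was called by edgeR, where 0.00461% of all genes were called. There 10 members had an unadjusted p under 0.05 against 4.85% of all genes. DESeq2 called 1 member and 34 of all 21703 genes.

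The other groups were set against the same 3 WT samples, so these comparisons share them. T+ dwarf had no called member by edgeR, with 0.0507% of all genes called. At an unadjusted p under 0.05 were 11 members and 11.9% of all genes. DESeq2 called 2 members and 120 of all 21703 genes. T+ normal had none by edgeR either, with 1.34% of all genes called, and 13 members at an unadjusted p under 0.05 where 15.4% of all genes were. Here DESeq2 called 2 members and 1166 of the 21703 genes. Gen2 dwarf had none by edgeR, with 0.0968% of all genes called, and 14 members at an unadjusted p under 0.05 where 13.1% of all genes were. With DESeq2, 3 members and 380 of the 21703 genes were called. In Gen2 large only WRKY40 was called, as lower, with 0.963% of all genes called and 0.843% called lower, while 19 members were lower at an unadjusted p under 0.05 against 9.12% of all genes. That call was lost without Gen2 large 2 and without Gen2 large 3, and 3 members were called without WT 3. Over all genes these fits called 10, 13 and 309, where the fit of all 20 samples called 209. The median log2 difference from WT over the members was 0.13 in T+ dwarf, −0.28 in T+ normal, 0.12 in Gen2 dwarf and −0.35 in Gen2 large, where the medians over all genes lay between −0.02 and 0.01.

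Taking the 3 dwarf groups against the 3 non-dwarf groups, 28 members were higher and 2, WRKY23 and WRKY42, were lower, while 32.8% of all genes were called and 17.8% were called higher and 15.0% lower. The samples of the dwarf and non-dwarf groups did not overlap for 2 of the 52 members, WRKY60 and WRKY61, against 0.636% of all genes. Over the 6 groups, 27 members showed a difference of any kind, while 21.2% of all genes did. The 11 members called in both T+ and Gen2 made up 73.3% of the T+ list and 45.8% of the Gen2 list, and 10 of them changed in the same direction. For all genes those shares were 35.5% and 39.5%, and 1127 of the 1154 genes called in both changed in the same direction. WRKY28, WRKY45, WRKY48, WRKY60 and WRKY61 were higher in all 3 comparisons of Gen1 dwarf with WT, T+ dwarf with T+ normal and Gen2 dwarf with Gen2 large.

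**Figure D3:**
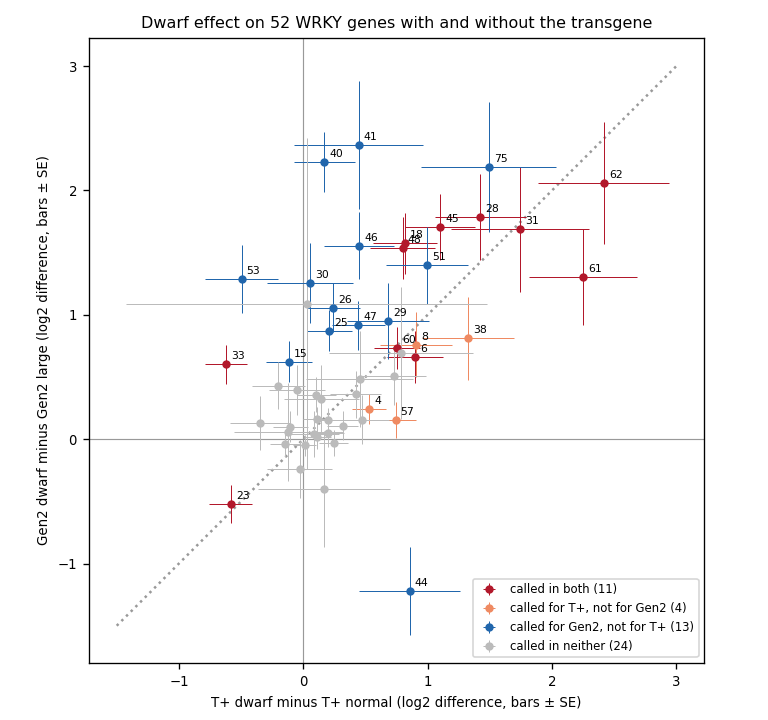
Log2 difference of T+ dwarf from T+ normal (x axis) and of Gen2 dwarf from Gen2 large (y axis) for the 52 counted WRKY genes, with bars of 1 SE and the numbers of called genes at the points. Of the 11 genes called in both, 10 changed in the same direction, as did 1127 of 1154 among all tested genes. WRKY33 lies at −0.62 on the x axis and 0.60 on the y axis.

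WRKY18 (AT4G31800, chr4:15382777-15385100), WRKY40 (AT1G80840, chr1:30383561-30385499) and WRKY60 (AT2G25000, chr2:10629662-10631413) form subgroup IIa. They pair with each other through leucine zippers and are known to restrain basal defence and abscisic acid responses. WRKY60 stood at 26.6, 23.7 and 32.2 CPM in T+ dwarf, 33.1, 45.9 and 42.7 CPM in Gen1 dwarf and 20.6, 31.3, 27.7, 27.8 and 20.6 CPM in Gen2 dwarf. It stood at 19.7, 15 and 14.2 CPM in T+ normal, 12, 17.8 and 16.4 CPM in Gen2 large and 16.1, 17.4 and 14.5 CPM in WT. Every dwarf sample lay above every non-dwarf sample. WRKY60 rose in Gen1 dwarf against WT (log2 difference 1.34 ± 0.19, adjusted p = 0.00156) and the call held in each fit without 1 sample. It rose in T+ dwarf against T+ normal (0.75 ± 0.19, adjusted p = 0.0109), where the call was lost without T+ dwarf 3 and T+ normal 3, with an adjusted p of up to 0.057, and in Gen2 dwarf against Gen2 large (0.73 ± 0.17, adjusted p = 0.00931), where it was lost without Gen2 large 1, with an adjusted p of up to 0.0715.

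WRKY40 reached 17.7, 13.4 and 19.2 CPM in T+ dwarf, 36.1, 37.6 and 37 CPM in Gen1 dwarf and 28.4, 19.1, 29.7, 25.2 and 38 CPM in Gen2 dwarf. Its non-dwarf levels were 15.5, 9.63 and 19.6 CPM in T+ normal, 7.9, 5.35 and 4.69 CPM in Gen2 large and 14.9, 16.6 and 19.9 CPM in WT. The 3 Gen1 dwarf samples lay within a few CPM of each other, the T+ samples of either size overlapped with WT, and the 3 Gen2 large samples were the lowest of all 20. WRKY40 rose in Gen1 dwarf against WT (log2 difference 1.11 ± 0.25, adjusted p = 0.0281), a call that was lost without Gen1 dwarf 1, Gen1 dwarf 2, Gen1 dwarf 3, WT 1 and WT 2, with an adjusted p of up to 0.156. It fell in Gen2 large against WT (−1.51 ± 0.25, adjusted p = 0.0127), a call that was lost without Gen2 large 2 and Gen2 large 3, with an adjusted p of up to 0.0823. In Gen2 it rose in dwarf against large plants (2.23 ± 0.24, adjusted p = 9.400e-05), a call that held in each fit without 1 sample. In T+ dwarf against T+ normal the log2 difference was 0.17 ± 0.25, adjusted p = 0.687, with a 95% interval of −0.35 to 0.69. The log2 dwarf effect of T+ minus that of Gen2 was −2.06 ± 0.34, adjusted p = 0.0152, and this call was lost without Gen2 large 2 and Gen2 large 3, with an adjusted p of up to 0.0527.

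WRKY18 was measured at 67.1, 51.6 and 116 CPM in T+ dwarf, 121, 107 and 90.4 CPM in Gen1 dwarf and 96.3, 101, 72.6, 85.5 and 77.7 CPM in Gen2 dwarf. Plants without the dwarf form had 60.8, 43.5 and 29.1 CPM in T+ normal, 31.7, 23 and 32.7 CPM in Gen2 large and 64.4, 57.3 and 60.1 CPM in WT. T+ dwarf 3 was nearly as high as the highest Gen1 dwarf sample, and the Gen2 large samples were again low, with T+ normal 3 among them. WRKY18 rose in Gen2 dwarf against Gen2 large (log2 difference 1.57 ± 0.25, adjusted p = 0.000808), and the call held in each fit without 1 sample. It rose in T+ dwarf against T+ normal (0.82 ± 0.26, adjusted p = 0.0411), but the groups overlapped and the call was lost without T+ dwarf 1, T+ dwarf 3, T+ normal 2, T+ normal 3, Gen1 dwarf 2, Gen2 dwarf 4, Gen2 large 1, WT 1, WT 2 and WT 3, with an adjusted p of up to 0.273. It was also lost without the count filter, with Gen2 dwarf 1 to 3 alone and with the replicate number as a block (adjusted p = 0.0636). Against WT, Gen1 dwarf had a log2 difference of 0.81 ± 0.26, adjusted p = 0.117, short of the threshold although the groups did not overlap.

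**Figure D4:**
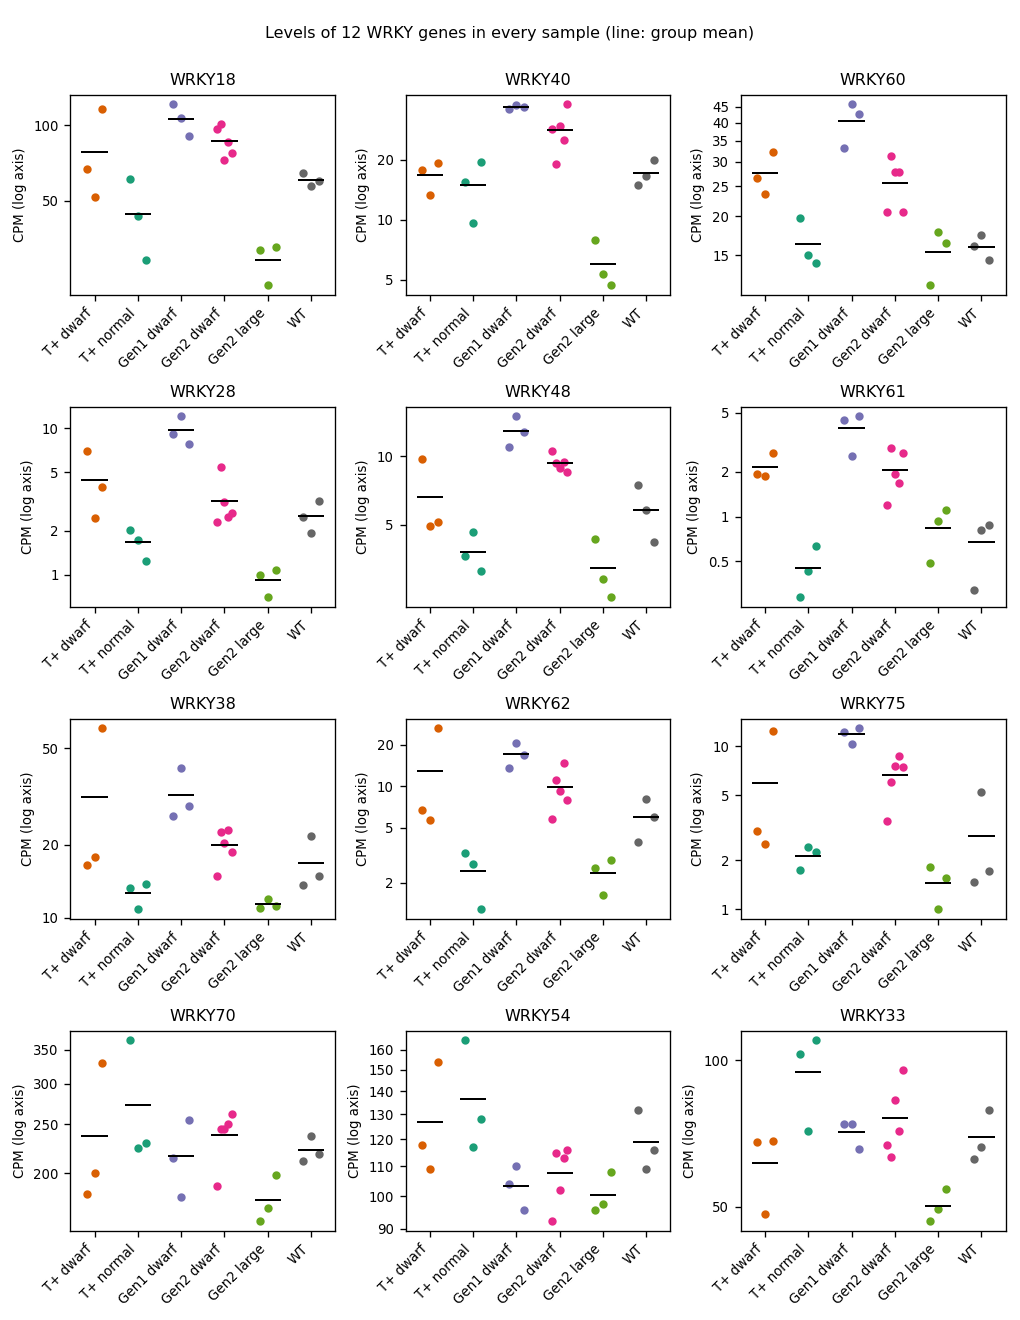
CPM on log axes of 12 WRKY genes in every sample, by group, with a line at the group mean. WRKY60 is higher in every dwarf sample than in every non-dwarf sample, WRKY40 is lowest in the 3 Gen2 large samples, and WRKY38, WRKY62 and WRKY75 are far higher in T+ dwarf 3 than in T+ dwarf 1 and 2.

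In subgroup IIc, 8 of 11 members rose and 1 fell in the pooled dwarf groups, where 17.8% of all genes rose and 15.0% fell. WRKY28 (AT4G18170, chr4:10061214-10062893), known to activate the salicylic acid synthesis gene ICS1, had 6.95, 2.42 and 3.96 CPM in T+ dwarf, 9.09, 12.1 and 7.85 CPM in Gen1 dwarf and 2.27, 5.43, 3.12, 2.49 and 2.63 CPM in Gen2 dwarf. It had 2.03, 1.71 and 1.23 CPM in T+ normal, 0.987, 0.697 and 1.08 CPM in Gen2 large and 2.46, 1.93 and 3.2 CPM in WT. Gen1 dwarf held the 3 highest samples, and Gen2 large the 3 lowest. WRKY28 rose in Gen1 dwarf against WT (log2 difference 1.94 ± 0.36, adjusted p = 0.0103), a call that was lost without WT 1, with an adjusted p of up to 0.0685. It rose in T+ dwarf against T+ normal (1.42 ± 0.36, adjusted p = 0.0133), a call that was lost without T+ dwarf 1 and T+ normal 3, with an adjusted p of up to 0.105, and in Gen2 dwarf against Gen2 large (1.79 ± 0.35, adjusted p = 0.00316), a call that held in each fit without 1 sample. It was also the member called between the dwarf generations, where 0.235% of all genes were called: it fell in Gen2 dwarf against Gen1 dwarf (−1.61 ± 0.31, adjusted p = 0.0365), and the call was lost without Gen1 dwarf 1, Gen1 dwarf 2, Gen1 dwarf 3, Gen2 dwarf 1, Gen2 dwarf 3, Gen2 dwarf 4 and Gen2 dwarf 5, with an adjusted p of up to 0.291. The groups did not overlap.

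WRKY45 (AT3G01970, chr3:325952-327412) and WRKY75 (AT5G13080, chr5:4149738-4151201) are a related pair known from phosphate starvation and as promoters of leaf senescence. WRKY45 stood at 1.92, 2.71 and 3.23 CPM in T+ dwarf, 4.8, 3.8 and 5.35 CPM in Gen1 dwarf and 2.31, 1.99, 3.24, 2.82 and 3.52 CPM in Gen2 dwarf. Elsewhere it stood at 1.1, 0.987 and 1.58 CPM in T+ normal, 1.01, 0.844 and 0.695 CPM in Gen2 large and 1.85, 2.32 and 1.36 CPM in WT. WRKY45 rose in Gen1 dwarf against WT (log2 difference 1.33 ± 0.28, adjusted p = 0.019), in T+ dwarf against T+ normal (1.10 ± 0.28, adjusted p = 0.0131) and in Gen2 dwarf against Gen2 large (1.71 ± 0.27, adjusted p = 0.000677). The first call was lost without Gen1 dwarf 1, Gen1 dwarf 3, WT 1 and WT 3, with an adjusted p of up to 0.0914, the T+ call was lost without T+ dwarf 3, T+ normal 1 and T+ normal 2, with an adjusted p of up to 0.0599, and the Gen2 call held in each fit without 1 sample. WRKY75 had 3.01, 2.53 and 12.4 CPM in T+ dwarf, 12.3, 10.4 and 12.9 CPM in Gen1 dwarf and 3.47, 6.04, 7.52, 8.66 and 7.5 CPM in Gen2 dwarf. The other samples had 1.74, 2.4 and 2.24 CPM in T+ normal, 1.81, 1 and 1.56 CPM in Gen2 large and 1.47, 5.27 and 1.72 CPM in WT. T+ dwarf 3 and WT 2 stood well above the other samples of their groups. WRKY75 rose in Gen2 dwarf against Gen2 large (2.19 ± 0.52, adjusted p = 0.012), a call that was lost without Gen2 large 2 and Gen2 large 3, with an adjusted p of up to 0.063. In Gen1 dwarf against WT its log2 difference was 2.07 ± 0.55, adjusted p = 0.0585, and the groups did not overlap.

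WRKY48 (AT5G49520, chr5:20090648-20093346), known to repress basal defence against bacteria, had 9.74, 4.95 and 5.13 CPM in T+ dwarf, 11, 15 and 12.8 CPM in Gen1 dwarf and 10.6, 9.31, 8.84, 9.39 and 8.54 CPM in Gen2 dwarf. In non-dwarf plants it had 3.65, 4.65 and 3.11 CPM in T+ normal, 4.34, 2.89 and 2.39 CPM in Gen2 large and 7.47, 5.78 and 4.19 CPM in WT. It rose in Gen1 dwarf against WT (log2 difference 1.15 ± 0.26, adjusted p = 0.0302), a call that was lost without Gen1 dwarf 1, Gen1 dwarf 2, Gen1 dwarf 3, WT 1, WT 2 and WT 3, with an adjusted p of up to 0.117. WRKY48 rose in Gen2 dwarf against Gen2 large (1.54 ± 0.25, adjusted p = 0.00089), a call that held in each fit without 1 sample. The call in T+ dwarf against T+ normal (0.80 ± 0.27, adjusted p = 0.0489) held in 7 of 20 fits without 1 sample, those without T+ dwarf 2, T+ dwarf 3, T+ normal 2, Gen2 large 1, Gen2 large 3, WT 1 and WT 3, and the adjusted p reached 0.346 without T+ dwarf 1, and it was lost with DESeq2 size factors, without the count filter, with a filter on mean CPM and with Gen2 dwarf 1 to 3 alone. WRKY8 (AT5G46350, chr5:18801164-18804056), known from salt and virus responses, had 6.21, 5.12 and 5.9 CPM in T+ dwarf, 8.59, 11.4 and 8.74 CPM in Gen1 dwarf and 2.51, 6.8, 6.81, 6.3 and 7.01 CPM in Gen2 dwarf. Its other values were 3.05, 3.59 and 2.55 CPM in T+ normal, 3.52, 4.18 and 2.7 CPM in Gen2 large and 3.39, 3.9 and 5.02 CPM in WT. Gen2 dwarf 1 was low among the dwarf samples. WRKY8 rose in Gen1 dwarf against WT (1.22 ± 0.29, adjusted p = 0.0327), a call that was lost without Gen1 dwarf 1, Gen1 dwarf 2, Gen1 dwarf 3, WT 1 and WT 2, with an adjusted p of up to 0.17, and in T+ dwarf against T+ normal (0.91 ± 0.29, adjusted p = 0.039), a call that was lost without T+ dwarf 1, T+ dwarf 3, T+ normal 1 and T+ normal 3, with an adjusted p of up to 0.135.

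WRKY51 (AT5G64810, chr5:25908247-25909881), known with WRKY50 to repress jasmonate signalling, had 13.8, 8.9 and 23.6 CPM in T+ dwarf, 16.6, 33.4 and 25.2 CPM in Gen1 dwarf and 12.2, 14.2, 16.4, 22.7 and 22.3 CPM in Gen2 dwarf. Non-dwarf plants had 7.13, 7.57 and 8.54 CPM in T+ normal, 7.7, 5.97 and 6.34 CPM in Gen2 large and 9.96, 19.8 and 12.4 CPM in WT. It rose in Gen2 dwarf against Gen2 large (log2 difference 1.40 ± 0.31, adjusted p = 0.00794), and the call held in each fit without 1 sample. WRKY57 (AT1G69310, chr1:26054275-26058383), known from drought tolerance and jasmonate-induced senescence, had 25, 16.4 and 14.5 CPM in T+ dwarf, 19.5, 19.3 and 19.6 CPM in Gen1 dwarf and 13.1, 17.6, 15.5, 17.7 and 13.2 CPM in Gen2 dwarf. It ranged little elsewhere, with 10.5, 12.1 and 10.8 CPM in T+ normal, 13.8, 14.1 and 13.7 CPM in Gen2 large and 14.1, 15.3 and 14.6 CPM in WT. It rose in T+ dwarf against T+ normal (0.74 ± 0.16, adjusted p = 0.00484), a call that held in each fit without 1 sample, while in Gen2 the log2 difference was 0.15 ± 0.14, adjusted p = 0.506. The difference between those dwarf effects was 0.59 ± 0.21, adjusted p = 0.228.

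WRKY12 (AT2G44745, chr2:18447203-18449093) and WRKY13 (AT4G39410, chr4:18332606-18334893), known from secondary cell walls of the stem and from opposite effects on flowering time, passed no comparison. WRKY12 stood at 2.25, 1.59 and 4.83 CPM in T+ dwarf, 1.44, 1.55 and 1.65 CPM in Gen1 dwarf and 5.95, 1.22, 1.83, 1.96 and 1.97 CPM in Gen2 dwarf. Its other levels were 0.847, 1.73 and 2.46 CPM in T+ normal, 2.4, 1.5 and 0.895 CPM in Gen2 large and 3.87, 4.44 and 1.26 CPM in WT. Samples of 1 group differed several-fold, with T+ dwarf 3, Gen2 dwarf 1, WT 1 and WT 2 high. WRKY13 stood at 2.63, 1.7 and 3.32 CPM in T+ dwarf, 1.59, 2.35 and 1.81 CPM in Gen1 dwarf and 3.28, 2.58, 2.52, 2.44 and 1.83 CPM in Gen2 dwarf. Its other levels were 1.77, 3.07 and 2.1 CPM in T+ normal, 2.37, 1.81 and 1.88 CPM in Gen2 large and 3.38, 3.94 and 1.92 CPM in WT. The 95% interval of the log2 difference of Gen2 dwarf from Gen2 large was −0.42 to 1.80 for WRKY12 and −0.25 to 0.89 for WRKY13.

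In subgroup III, 5 of 9 members rose in Gen2 dwarf against Gen2 large and 2 in T+ dwarf against T+ normal, where 8.67% and 7.21% of all genes did. WRKY70 (AT3G56400, chr3:20908711-20910623) and WRKY54 (AT2G40750, chr2:17000419-17002528), the most abundant members, were called in no comparison. WRKY70 stood at 182, 200 and 330 CPM in T+ dwarf, 214, 180 and 255 CPM in Gen1 dwarf and 189, 245, 245, 250 and 262 CPM in Gen2 dwarf. It stood at 365, 224 and 229 CPM in T+ normal, 161, 171 and 199 CPM in Gen2 large and 212, 237 and 218 CPM in WT. The highest values were in T+ normal 1 and T+ dwarf 3, and the dwarf and non-dwarf groups of T+ overlapped. WRKY54 had 118, 109 and 154 CPM in T+ dwarf, 104, 110 and 95.5 CPM in Gen1 dwarf and 92.2, 115, 102, 113 and 116 CPM in Gen2 dwarf. It had 165, 117 and 128 CPM in T+ normal, 95.6, 97.5 and 108 CPM in Gen2 large and 132, 109 and 116 CPM in WT. The 95% interval for Gen2 dwarf against Gen2 large was 0.03 to 0.83 for WRKY70, where the adjusted p was 0.136, and −0.16 to 0.37 for WRKY54, where it was 0.631.

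WRKY38 (AT5G22570, chr5:7495455-7496990) and WRKY62 (AT5G01900, chr5:350925-352095) are salicylic acid-induced genes known to dampen basal defence. WRKY62 stood at 6.71, 5.75 and 26.4 CPM in T+ dwarf, 13.7, 20.6 and 16.8 CPM in Gen1 dwarf and 5.83, 11.1, 9.33, 14.9 and 8.02 CPM in Gen2 dwarf. Non-dwarf plants had 3.29, 2.73 and 1.28 CPM in T+ normal, 2.55, 1.62 and 2.92 CPM in Gen2 large and 3.93, 8.13 and 5.97 CPM in WT. T+ dwarf 3 was the highest of all 20 samples, and the T+ normal and Gen2 large samples were the 6 lowest. WRKY62 rose in T+ dwarf against T+ normal (log2 difference 2.42 ± 0.53, adjusted p = 0.00617), a call that held in each fit without 1 sample. It rose in Gen2 dwarf against Gen2 large (2.06 ± 0.49, adjusted p = 0.012), a call that was lost without Gen2 large 2, with an adjusted p of up to 0.0637. WRKY38 had 16.5, 17.8 and 60.5 CPM in T+ dwarf, 26.2, 41.5 and 28.9 CPM in Gen1 dwarf and 14.8, 22.5, 20.4, 23.1 and 18.6 CPM in Gen2 dwarf. The other groups had 13.3, 10.8 and 13.8 CPM in T+ normal, 10.9, 11.9 and 11.2 CPM in Gen2 large and 13.6, 21.8 and 14.8 CPM in WT. WRKY38 rose in T+ dwarf against T+ normal (1.32 ± 0.37, adjusted p = 0.0229), where the groups did not overlap, and the call was lost without T+ dwarf 3, T+ normal 1, T+ normal 2 and T+ normal 3, with an adjusted p of up to 0.202. Its log2 difference in Gen2 was 0.81 ± 0.33, adjusted p = 0.113.

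WRKY46 (AT2G46400, chr2:19043411-19044955) and WRKY53 (AT4G23810, chr4:12392370-12393982) are a related pair, WRKY46 known from salicylic acid and drought responses and WRKY53 as an early promoter of leaf senescence. WRKY46 stood at 19.7, 15.5 and 41.4 CPM in T+ dwarf, 31.8, 37 and 36.2 CPM in Gen1 dwarf and 50.7, 26, 35.8, 35.9 and 55.8 CPM in Gen2 dwarf. It stood at 19.9, 17.5 and 18.8 CPM in T+ normal, 15.5, 13.1 and 13.1 CPM in Gen2 large and 22.3, 26.3 and 23.3 CPM in WT. Every Gen2 dwarf sample lay above every Gen2 large sample, and T+ dwarf 3 lay far above the other T+ samples. WRKY46 rose in Gen2 dwarf against Gen2 large (log2 difference 1.56 ± 0.27, adjusted p = 0.00149), and the call held in each fit without 1 sample. WRKY53 had 23.2, 15 and 31.5 CPM in T+ dwarf, 25.2, 33.9 and 26 CPM in Gen1 dwarf and 23.5, 19.4, 38.4, 42.8 and 39.7 CPM in Gen2 dwarf. In non-dwarf plants it had 32, 22.7 and 43.6 CPM in T+ normal, 15.5, 11.5 and 13.3 CPM in Gen2 large and 20.8, 21.9 and 21.8 CPM in WT. WRKY53 rose in Gen2 dwarf against Gen2 large (1.29 ± 0.28, adjusted p = 0.00644), a call that held in each fit without 1 sample. In T+ the log2 difference was −0.50 ± 0.29, adjusted p = 0.274, and T+ normal 3 was the highest of all 20 samples. The log2 dwarf effect of T+ minus that of Gen2 was −1.78 ± 0.40, adjusted p = 0.0501.

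WRKY30 and WRKY41, also of III, rose in Gen2 dwarf against Gen2 large by a log2 difference of 1.26 ± 0.32, adjusted p = 0.0162 and 2.37 ± 0.51, adjusted p = 0.0061. For WRKY30 the call was lost without Gen2 large 2 and Gen2 large 3, with an adjusted p of up to 0.09, and for WRKY41 it held in each fit without 1 sample. WRKY41 was rare, with a mean of 0.8393 CPM. WRKY55 had log2 differences of at most 0.51 in the 9 comparisons and passed none.

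Subgroup IIb had 5 counted members, of which 4 rose and WRKY42 fell in the pooled dwarf groups, where 17.8% of all genes rose and 15.0% fell. WRKY61 (AT1G18860, chr1:6508797-6511397) stood at 1.92, 1.88 and 2.66 CPM in T+ dwarf, 4.44, 2.57 and 4.72 CPM in Gen1 dwarf and 1.19, 2.87, 1.92, 1.68 and 2.67 CPM in Gen2 dwarf. It stood at 0.286, 0.429 and 0.638 CPM in T+ normal, 0.489, 0.933 and 1.1 CPM in Gen2 large and 0.32, 0.818 and 0.871 CPM in WT. All dwarf samples lay above all non-dwarf ones. WRKY61 rose in Gen1 dwarf against WT (log2 difference 2.55 ± 0.43, adjusted p = 0.00529) and in T+ dwarf against T+ normal (2.25 ± 0.44, adjusted p = 0.00228), and each of these calls held in each fit without 1 sample. In Gen2 it rose by a log2 difference of 1.303 ± 0.39 in dwarf against large plants (adjusted p = 0.0324), a call that was lost without Gen2 dwarf 2, Gen2 dwarf 5, Gen2 large 1, Gen2 large 2 and Gen2 large 3, with an adjusted p of up to 0.155. WRKY61 overlaps another annotated gene, and how reads in the overlap were counted is not stated. Reads counted as ambiguous were left out, so reads of the overlap may be missing from its values or mixed into them. The same holds for WRKY1, WRKY2, WRKY4, WRKY29, WRKY33, WRKY40, WRKY41, WRKY53 and WRKY69.

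WRKY6 (AT1G62300, chr1:23016569-23019494), known from senescence, defence and phosphate responses, had 21.3, 13.5 and 22.4 CPM in T+ dwarf, 21.7, 27.1 and 20.8 CPM in Gen1 dwarf and 11.7, 18.7, 20.7, 17.7 and 20.4 CPM in Gen2 dwarf. It had 10.8, 10.7 and 9.25 CPM in T+ normal, 11.6, 8.89 and 13.5 CPM in Gen2 large and 10.7, 15.1 and 18 CPM in WT. It rose in T+ dwarf against T+ normal (log2 difference 0.90 ± 0.23, adjusted p = 0.0128), a call that was lost without T+ dwarf 1, T+ dwarf 3 and T+ normal 3, with an adjusted p of up to 0.0555. In Gen2 it rose in dwarf against large plants (0.66 ± 0.21, adjusted p = 0.0409), but the groups overlapped and the call was lost without T+ normal 2, Gen1 dwarf 1, Gen1 dwarf 3, Gen2 dwarf 2, Gen2 dwarf 3, Gen2 dwarf 4, Gen2 dwarf 5, Gen2 large 1, Gen2 large 2 and Gen2 large 3, with an adjusted p of up to 0.182. WRKY47 (AT4G01720, chr4:744804-748554) stood at 11.7, 7.28 and 9.18 CPM in T+ dwarf, 10.7, 12.1 and 11.3 CPM in Gen1 dwarf and 6.74, 10, 13.6, 14.5 and 10.4 CPM in Gen2 dwarf. Its non-dwarf levels were 6.47, 7.68 and 6.61 CPM in T+ normal, 5.53, 5.66 and 6.44 CPM in Gen2 large and 5.63, 5.8 and 6.16 CPM in WT. It rose in Gen1 dwarf against WT (0.96 ± 0.21, adjusted p = 0.0269), a call that was lost without Gen1 dwarf 1, Gen1 dwarf 2, Gen1 dwarf 3, WT 1 and WT 3, with an adjusted p of up to 0.131, and in Gen2 dwarf against Gen2 large (0.92 ± 0.20, adjusted p = 0.00578), a call that held in each fit without 1 sample.

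WRKY31 (AT4G22070, chr4:11691172-11694590) was rare, with 0.723, 0.858 and 0.991 CPM in T+ dwarf, 2.23, 1.66 and 1.56 CPM in Gen1 dwarf and 0.483, 1.09, 1.74, 0.987 and 1.15 CPM in Gen2 dwarf. It had 0.199, 0.247 and 0.319 CPM in T+ normal, 0.378, 0.452 and 0.17 CPM in Gen2 large and 0.936, 1.84 and 0.256 CPM in WT. WT 3 was low and WT 2 was high. It rose in T+ dwarf against T+ normal (log2 difference 1.74 ± 0.55, adjusted p = 0.0395), a call that was lost without T+ dwarf 1, T+ dwarf 2, T+ dwarf 3, T+ normal 1, T+ normal 2 and T+ normal 3, with an adjusted p of up to 0.122. It rose in Gen2 dwarf against Gen2 large (1.69 ± 0.50, adjusted p = 0.0335), a call that was lost without Gen2 dwarf 3, Gen2 dwarf 4, Gen2 large 1, Gen2 large 2 and Gen2 large 3, with an adjusted p of up to 0.148.

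Subgroup I holds members known as targets of MAP kinases, and 4 of 11 rose in the pooled dwarf groups, where 17.8% of all genes did. WRKY33 (AT2G38470, chr2:16108235-16110766), which MPK3 and MPK6 phosphorylate and which drives synthesis of the antifungal compound camalexin, stood at 67.9, 48.3 and 68.3 CPM in T+ dwarf, 74, 74.1 and 65.7 CPM in Gen1 dwarf and 66.9, 63.4, 82.7, 71.4 and 95.7 CPM in Gen2 dwarf. It stood at 103, 71.4 and 110 CPM in T+ normal, 46.6, 49.4 and 54.4 CPM in Gen2 large and 62.8, 66.4 and 79.2 CPM in WT. T+ normal held the 2 highest samples, T+ normal 1 and 3, and the Gen2 large samples were low along with T+ dwarf 2. WRKY33 fell in T+ dwarf against T+ normal (log2 difference −0.62 ± 0.17, adjusted p = 0.02), where the groups did not overlap, and the call was lost without T+ dwarf 2, T+ normal 1 and T+ normal 3, with an adjusted p of up to 0.088. It rose in Gen2 dwarf against Gen2 large (0.60 ± 0.16, adjusted p = 0.0166), where the groups did not overlap, and the call was lost without Gen2 large 1 and Gen2 large 2, with an adjusted p of up to 0.0812. The log2 dwarf effect of T+ minus that of Gen2 was −1.22 ± 0.23, adjusted p = 0.0236, and the call was lost without T+ dwarf 2, T+ normal 1, T+ normal 3, Gen2 large 1, Gen2 large 2 and Gen2 large 3, with an adjusted p of up to 0.077. WRKY33 and WRKY40 were the 2 of 52 members called for this difference, while 0.654% of all genes were, and DESeq2 called 4. The call on WRKY33 was also lost with Gen2 dwarf 1 to 3 alone.

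WRKY25 (AT2G30250, chr2:12903208-12905338) and WRKY26 (AT5G07100, chr5:2204206-2205965) are known to act with WRKY33 in heat tolerance. WRKY25 had 45, 37 and 54.9 CPM in T+ dwarf, 58.1, 53.3 and 50.5 CPM in Gen1 dwarf and 32.5, 50.3, 50.2, 60.9 and 49.6 CPM in Gen2 dwarf. It had 42.3, 32.4 and 43.9 CPM in T+ normal, 28.4, 28.2 and 23.1 CPM in Gen2 large and 36.1, 33.2 and 42 CPM in WT. WRKY26 had 8.55, 6.85 and 9 CPM in T+ dwarf, 12.9, 9.12 and 11.8 CPM in Gen1 dwarf and 6.76, 7.64, 9.75, 12.2 and 7.06 CPM in Gen2 dwarf. It had 7.69, 5.75 and 7.19 CPM in T+ normal, 3.93, 4.56 and 4.03 CPM in Gen2 large and 5.94, 7.53 and 8.91 CPM in WT. The 3 Gen2 large samples were the lowest of all 20 for WRKY25 and for WRKY26. WRKY25 rose in Gen2 dwarf against Gen2 large (log2 difference 0.87 ± 0.17, adjusted p = 0.00275) and so did WRKY26 (1.06 ± 0.20, adjusted p = 0.00244). Both of these calls held in each fit without 1 sample. WRKY4 (AT1G13960, chr1:4776283-4779420), known from resistance to necrotrophic fungi, had 34.3, 28.9 and 32 CPM in T+ dwarf, 31.3, 35 and 30.2 CPM in Gen1 dwarf and 22.5, 24.7, 26.2, 31.8 and 24.2 CPM in Gen2 dwarf. It had 24.3, 21.7 and 20 CPM in T+ normal, 20.4, 22.7 and 22.6 CPM in Gen2 large and 21.4, 24.3 and 30.1 CPM in WT. WRKY4 rose in T+ dwarf against T+ normal (0.53 ± 0.13, adjusted p = 0.0124), a call that was lost without T+ dwarf 1 and T+ normal 3, with an adjusted p of up to 0.0654.

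WRKY44 fell in Gen2 dwarf against Gen2 large (log2 difference −1.22 ± 0.35, adjusted p = 0.0296), a call that was lost without Gen2 dwarf 4, Gen2 large 1 and Gen2 large 2, with an adjusted p of up to 0.155, while in T+ its difference was 0.85 ± 0.41, adjusted p = 0.165. WRKY23 of IIc fell in T+ dwarf against T+ normal (−0.58 ± 0.17, adjusted p = 0.0277) and in Gen2 dwarf against Gen2 large (−0.52 ± 0.15, adjusted p = 0.0291). Its T+ call was lost without T+ dwarf 2, T+ dwarf 3, T+ normal 2 and T+ normal 3, with an adjusted p of up to 0.0994, and its Gen2 call was lost without Gen2 dwarf 3, Gen2 dwarf 4, Gen2 large 1 and Gen2 large 2, with an adjusted p of up to 0.138. In the annotation's own note WRKY23 and WRKY45 are placed in group I, where they are counted here in IIc.

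In Gen2 dwarf against Gen2 large, 1 of 7 members of IId and 1 of 6 of IIe were called, where 13.5% of all genes were. IId binds calmodulin, and its called member, WRKY15, rose (log2 difference 0.62 ± 0.17, adjusted p = 0.0191), a call that was lost without Gen2 large 1, Gen2 large 2 and Gen2 large 3, with an adjusted p of up to 0.0844. WRKY11 (AT4G31550, chr4:15289788-15291934) and WRKY17 (AT2G24570, chr2:10437353-10439469) are known to hold back basal resistance. WRKY11 had 51.9, 42.4 and 52.9 CPM in T+ dwarf, 40.8, 60.4 and 52.8 CPM in Gen1 dwarf and 43.3, 42.1, 45.3, 41.1 and 50.6 CPM in Gen2 dwarf. It had 37.3, 43.6 and 47.7 CPM in T+ normal, 41.5, 42.1 and 45.2 CPM in Gen2 large and 50.1, 49.8 and 55.8 CPM in WT. WRKY17 had 13.7, 9.64 and 11.4 CPM in T+ dwarf, 10.7, 16.2 and 14.7 CPM in Gen1 dwarf and 10.7, 11.6, 10.3, 15.3 and 13.2 CPM in Gen2 dwarf. It had 9.92, 12.4 and 10.3 CPM in T+ normal, 11.6, 10.8 and 13.2 CPM in Gen2 large and 11.4, 18 and 10.5 CPM in WT. Neither was called, and the 95% interval of Gen2 dwarf against Gen2 large was −0.19 to 0.30 for WRKY11 and −0.34 to 0.42 for WRKY17.

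WRKY22 (AT4G01250, chr4:522530-524249) and WRKY29 (AT4G23550, chr4:12291632-12293367) of IIe are known as outputs of the MAP kinase cascade that bacterial flagellin sets off. WRKY22 stood at 1.69, 2.39 and 1.76 CPM in T+ dwarf, 2.6, 2.33 and 2.41 CPM in Gen1 dwarf and 1.48, 1.94, 2.45, 1.61 and 3.12 CPM in Gen2 dwarf. It stood at 2.38, 2.51 and 2.54 CPM in T+ normal, 1.97, 1.89 and 1.98 CPM in Gen2 large and 2.2, 2.05 and 2.13 CPM in WT. It was not called, with an interval of −0.32 to 0.58 for Gen2 dwarf against Gen2 large. WRKY29 had 1.34, 1.11 and 1.68 CPM in T+ dwarf, 1.65, 1.06 and 1.75 CPM in Gen1 dwarf and 0.765, 1.29, 1.52, 1.04 and 1.73 CPM in Gen2 dwarf. It had 1.18, 0.727 and 0.661 CPM in T+ normal, 0.793, 0.54 and 0.633 CPM in Gen2 large and 0.78, 0.696 and 0.833 CPM in WT. WRKY29 rose in Gen2 dwarf against Gen2 large (log2 difference 0.95 ± 0.31, adjusted p = 0.0453), but the groups overlapped and the call held in 4 of 20 fits without 1 sample, those without T+ normal 1, T+ normal 3, Gen1 dwarf 2 and Gen2 dwarf 1, and the adjusted p reached 0.162 without Gen2 large 2. It was also lost without the count filter, with Gen2 dwarf 1 to 3 alone and with the replicate number as a block (adjusted p = 0.128). In all, 19 members passed no comparison. They were WRKY1, WRKY3, WRKY20, WRKY32 and WRKY58 of I, WRKY12 and WRKY13 of IIc, WRKY7, WRKY11, WRKY17, WRKY21 and WRKY74 of IId, WRKY14, WRKY22, WRKY27 and WRKY65 of IIe, and WRKY54, WRKY55 and WRKY70 of III.

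Kinases that act on WRKY proteins were set beside them, in comparisons where 13.5% of all genes were called for Gen2 and 15.0% for T+. Of 8 genes of the MAP kinase cascade, 1 was called higher in Gen2 dwarf than in Gen2 large, MEKK1, which starts the cascade (log2 difference 0.25 ± 0.08, adjusted p = 0.0475), and none in T+ dwarf against T+ normal, where MKK4 (0.39 ± 0.15, adjusted p = 0.0865) and MKK2 (0.31 ± 0.12, adjusted p = 0.0879) had the smallest p. Of 4 calcium-dependent kinases, CPK6 rose in T+ dwarf (0.51 ± 0.16, adjusted p = 0.0431) and in Gen2 dwarf (0.68 ± 0.15, adjusted p = 0.00704). Of 5 VQ-motif proteins, which bind WRKY factors, JAV1, a repressor of jasmonate defence, rose in T+ dwarf (1.00 ± 0.24, adjusted p = 0.00996) and in Gen2 dwarf (1.01 ± 0.22, adjusted p = 0.0071), while SIB2, a partner of WRKY33, fell in Gen2 dwarf (−0.47 ± 0.14, adjusted p = 0.0325). The median log2 difference of Gen2 dwarf from Gen2 large was 0.10 over the MAP kinase list, 0.25 over the calcium-dependent kinases and 0.14 over the VQ-motif proteins.

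Of 11 genes known as WRKY targets or as outputs of the same defence pathway, 9 rose in Gen2 dwarf against Gen2 large, where 8.67% of all genes did, and none fell. The 5 with the smallest p were PR2, a glucanase (log2 difference 2.11 ± 0.34, adjusted p = 0.000938), CYP71A13 (2.86 ± 0.54, adjusted p = 0.00329) and PAD3 (2.07 ± 0.41, adjusted p = 0.0045) of camalexin synthesis, the receptor kinase FRK1 (1.86 ± 0.37, adjusted p = 0.00383) and CBP60G, a regulator of salicylic acid synthesis (1.01 ± 0.29, adjusted p = 0.0301). PAD3 stood at 32.2, 69.4, 78.9, 59.5 and 53.1 CPM in Gen2 dwarf and at 16.5, 10 and 15.4 CPM in Gen2 large. In T+ dwarf against T+ normal 1 of the 11 rose, where 7.21% of all genes did, PR2 (1.10 ± 0.35, adjusted p = 0.041). In Gen1 dwarf against WT none was called, with a median log2 difference of 0.67. In Gen2 large against WT 1 was called, CYP71A13, as lower (−2.51 ± 0.56, adjusted p = 0.0444).

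Markers of leaf state moved with the WRKY genes. The 6 senescent leaf genes summed to 135 to 237 CPM in Gen1 dwarf, 130 to 195 in Gen2 dwarf and 73.4 to 173 in T+ dwarf. They summed to 57.1 to 105 CPM in WT, 50.2 to 60.8 in T+ normal and 49.1 to 71.9 in Gen2 large. T+ dwarf 3, the T+ sample highest for WRKY38, WRKY62 and WRKY75, was also the highest T+ sample for this sum. Called higher were 6 of 6 in Gen2 dwarf against Gen2 large, 3 of 6 in Gen1 dwarf against WT and 1 of 6 in T+ dwarf against T+ normal, where 8.67%, 1.62% and 7.21% of all genes were. SAG12, the marker that defines late senescence, stood at 2.6 to 35.7 CPM in Gen2 dwarf and at 0 to 0.0461 in Gen2 large. It varied widely within the other groups, at 0 to 17.6 CPM in T+ dwarf and 0.347 to 9.63 in Gen1 dwarf. In T+ normal it ran from 0.0125 to 1.25 CPM and in WT from 0.00821 to 5.78. The samples at 0 were T+ dwarf 1 and Gen2 large 2. The 5 green leaf genes were all called lower in T+ dwarf than in T+ normal, where 7.79% of all genes were. All 5 also lay lower in Gen2 dwarf than in Gen2 large, with a median log2 difference of −0.47. Of these, 1 was called, where 4.79% of all genes were called lower. The part of leaf age in the WRKY differences was not tested.

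Of 7 floral organ genes, all below 2 CPM, 4 were called in T+ dwarf against T+ normal, 1 in Gen2 dwarf against Gen2 large and 0 in Gen1 dwarf against WT. Of all genes, 15.0%, 13.5% and 2.01% were. AG, which specifies stamens and carpels, stood at 0.196 to 0.506 CPM in T+ dwarf, 0.35 to 0.473 in Gen1 dwarf and 0.191 to 0.78 in Gen2 dwarf. Levels of AG in the others were 0.878 to 0.961 CPM in WT, 0.945 to 1.55 in T+ normal and 1.41 to 1.58 in Gen2 large, so that every dwarf sample lay below every non-dwarf sample. Dwarf and non-dwarf samples did not overlap, in either direction, for 0.636% of all genes. AG fell in T+ dwarf against T+ normal (log2 difference −1.82 ± 0.42, adjusted p = 0.00768) and in Gen2 dwarf against Gen2 large (−1.48 ± 0.36, adjusted p = 0.0112). The other 6 genes summed to 1.65 to 4.7 CPM in T+ dwarf and 0.208 to 0.71 in T+ normal, 1.42 to 2.68 in Gen1 dwarf and 0.282 to 1.1 in WT, and 0.468 to 1.34 in Gen2 dwarf and 0.397 to 1.72 in Gen2 large. Of these 6, AP1 (adjusted p = 0.0155), AP3 (adjusted p = 0.0193) and PI (adjusted p = 0.0419), genes of sepal, petal and stamen identity, were called higher in T+ dwarf than in T+ normal, where 7.21% of all genes were. Each was at 0 in T+ normal 1. None of them was called in Gen2 or in Gen1 dwarf against WT. The part of floral tissue in the WRKY differences was not tested.

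The 6 touch and wounding genes, which like WRKY40, WRKY46 and WRKY53 respond within minutes to handling, summed to 104 to 131 CPM in Gen2 large, below every sample of the other groups except T+ dwarf 2. They summed to 129 to 241 CPM in T+ dwarf, 184 to 286 in T+ normal, 207 to 245 in Gen1 dwarf, 184 to 348 in Gen2 dwarf and 200 to 250 in WT. Of the 6, 2 rose in Gen2 dwarf against Gen2 large, TCH3 (log2 difference 0.92 ± 0.18, adjusted p = 0.00312) and ZAT12 (1.73 ± 0.42, adjusted p = 0.012), where 8.67% of all genes did, and 1 fell in Gen2 large against WT, TCH3 (−0.85 ± 0.19, adjusted p = 0.0445). None passed in T+ dwarf against T+ normal or in Gen1 dwarf against WT. The part of harvest handling in the WRKY differences was not tested.

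**Figure D5:**
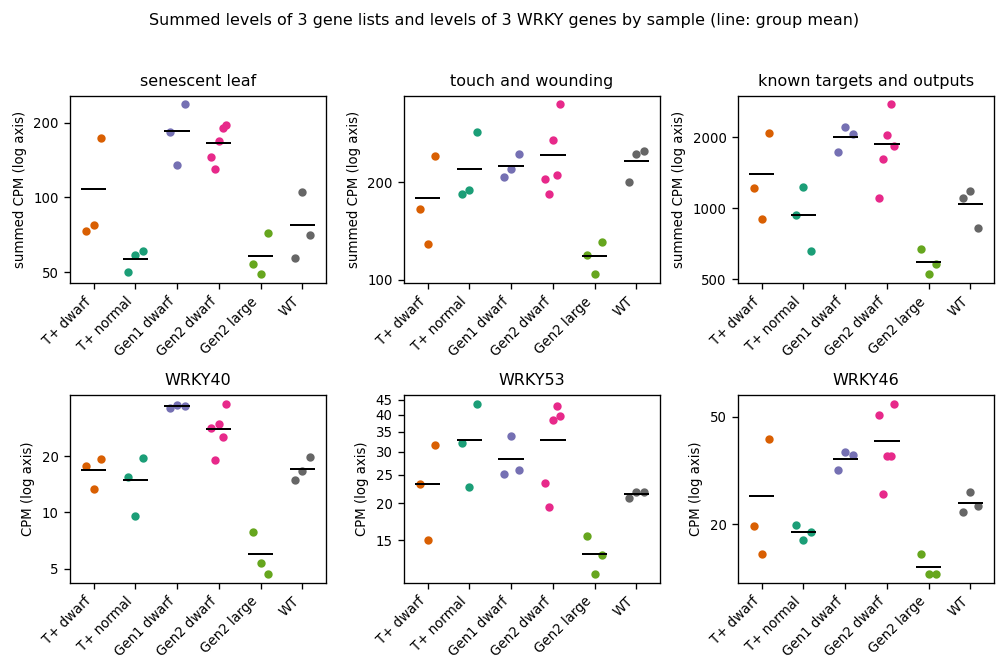
Summed CPM of the senescent leaf, touch and wounding, and target gene lists (top) and CPM of WRKY40, WRKY53 and WRKY46 (bottom) in every sample on log axes, by group, with a line at the group mean. Gen2 large has the lowest mean in 5 of the 6 panels, and in the senescent leaf panel its samples, at 49.1 to 71.9, lie beside those of T+ normal.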

How the data were processed

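For each of 20 samples the authors deposited whole-number counts of reads per gene. Per the submitters' processing notes, the authors trimmed reads with Trim Galore 0.4.1 and aligned them with STAR 2.7.0a to TAIR10, and per the labels' protocols TruSeq v2 libraries were read as 100-bp pairs. The counting program and its use of strand are not stated there. The 5 lines that name no gene entered neither library sizes nor tests. Relative to gene counts, reads outside any gene made up 0.776 to 1.14% and ambiguous reads 0.264 to 0.36%.

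Counts were analysed with edgeR 4.0.16 under R 4.3.3. filterByExpr with a minimum count of 10 kept 21703 genes. A single model of the 6 groups was fitted to all 20 samples, with TMM scaling and the robust quasi-likelihood test (14 residual degrees of freedom, biological coefficient of variation 0.225). P-values were adjusted by Benjamini-Hochberg across the tested genes and calls made at 0.05. Log2 differences carry standard errors derived from the F statistic, with 95% intervals on the fit's own degrees of freedom. CPM are scaled to the TMM library size, and plotted log2 CPM use a prior count of 2. The fit was tested on simulated data.

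The members and gene lists were chosen with earlier results of these data known, and no list is independent support. Values in every sample are given for the 20 called members with the smallest adjusted p and for 22 well studied members, 30 in all since these overlap, with other members by count or where a result turns on them. List genes are named up to 5 a list by adjusted p. Subgroups were written by hand from general knowledge. Gene names, coordinates and upstream sequence came from TAIR10.1, in which all 54 loci were found. The files hold no coordinates, and none was converted between builds.

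Alternatives were DESeq2 1.42.0, its size factors in edgeR, no count filter, a filter on mean CPM, the replicate number as a block, and leaving out each sample in turn. A fit with Gen2 dwarf 1 to 3 alone was chosen after seeing the data, since the design text gives 3 replicates per group while 5 are labelled so.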

Additional observations from a re-analysis of the deposited data

Results flagged for a closer look

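In Gen2 dwarf, the group with 5 samples, 1 sample stood far from the other 4 for 6 of the 52 members. These were WRKY8 in Gen2 dwarf 1 at 2.51 CPM, WRKY12 in Gen2 dwarf 1 at 5.95 CPM, WRKY14 in Gen2 dwarf 1 at 11 CPM, WRKY70 in Gen2 dwarf 1 at 189 CPM, WRKY28 in Gen2 dwarf 2 at 5.43 CPM and WRKY44 in Gen2 dwarf 4 at 2.1 CPM. The gap to the nearest sample exceeded 0.71 of the group's range, which chance gives for about 1 in 20 genes. Of all 21703 tested genes, 6.97% had a sample apart in this way. Gen2 dwarf 1 was that sample for 4 of the 6 members and for 534 of the 1513 genes.

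The dwarf effect in T+ differed from that in Gen2 for WRKY33, by −1.22 on the log2 scale, and for WRKY40, by −2.06, in a test of the difference itself.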

How the results depend on the processing

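Under the 26 alternatives, none of the 81 member and comparison pairs called reversed its direction, 1877 of the refitted pairs stayed on their side of the threshold and 229 no longer passed it. In the pairwise comparisons, most fits without 1 sample dropped a sample of neither group, so many of the 1877 left both groups as they were. For WRKY31 in T+, every fit without a T+ sample lost the call. DESeq2 called 2 members in T+ dwarf against WT, 2 in T+ normal against WT, 3 in Gen2 dwarf against WT, 7 in Gen2 large against WT and 1 in Gen1 dwarf against T+ dwarf. Over all 21703 genes it called 120, 1166, 380, 743 and 34 in these comparisons. It called 2 members in Gen2 dwarf against Gen1 dwarf and 4 for the difference of dwarf effects, and its counts over all genes there are not given here. Gen2 dwarf 1 to 3 alone gave 15 in Gen2 dwarf against Gen2 large, where 1578 of 21622 genes were called. It gave 0 in Gen2 dwarf against Gen1 dwarf and 1 for the difference of dwarf effects, with fewer samples fitted. Deviations of samples with the same number had correlations of −0.44 to 0.39 over 45 pairs, 8 of them above 0.1. Other pairs had −0.36 to 0.33. The highest was between Gen2 dwarf 1 and WT 1, and the lowest between Gen2 dwarf 1 and T+ normal 1. Whether samples of the same number share a batch was not tested. With the replicate number as a block, which drops Gen2 dwarf 4 and 5 from the contrast, the count was 0 in Gen2 dwarf against Gen1 dwarf. It was 2 in Gen2 large against WT, where 179 of 21703 genes were called. It was 11 in Gen2 dwarf against Gen2 large and 13 in T+ dwarf against T+ normal, where 1356 and 2892 genes were called. The block lost the T+ calls on WRKY18 and WRKY31. It lost the Gen2 calls on WRKY6, WRKY15, WRKY23, WRKY29, WRKY30, WRKY31, WRKY33, WRKY44, WRKY61 and WRKY75. Also lost in Gen2 were WRKY41 (adjusted p = 0.058), WRKY51 (adjusted p = 0.0559) and WRKY62 (adjusted p = 0.0559).

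Leaving out 1 sample gave 0 called members in every fit of T+ dwarf against WT and of Gen1 dwarf against T+ dwarf, 0 to 1 called members in T+ normal against WT, 2 to 12 in Gen1 dwarf against WT, 0 to 1 in Gen2 dwarf against WT, 0 to 3 in Gen2 large against WT, 5 to 15 in T+ dwarf against T+ normal, 13 to 25 in Gen2 dwarf against Gen2 large, 0 to 2 in Gen2 dwarf against Gen1 dwarf, 0 to 4 for the difference of dwarf effects, 26 to 31 in the pooled dwarf groups and 24 to 29 for any difference. The counts over all genes moved in such fits too, as given above for the fits named there. Where a count moved, the cause was not tested.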
